A study of Mus musculus with 21 samples.

Results

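The 9 genes described here write, erase or read DNA methylation, and were followed in the hippocampus of adult mice with or without separation from their dam as pups: the DNA methyltransferases Dnmt1, Dnmt3a and Dnmt3b, the Tet dioxygenases Tet1, Tet2 and Tet3, and the methyl-CpG binding proteins Mbd1, Mbd2 and Mbd3. They were chosen by name from the 55487 genes of the count table, and all 9 were among the 18146 genes that passed the filter on low counts. RNA came from male wild type C57BL/6 mice killed at 10 weeks. In the maternal separation (MS) group, the pups of a nest spent 4 hours per day away from the dam from postnatal day (PND) 10 to PND 17, and most of the nesting material was taken out of the home cage. Standard rearing (SR) mice were left with their dam, and after weaning both groups were housed alike. The series holds 1 library per mouse, 9 from MS and 12 from SR mice. Whole hippocampus was used, so that fewer cells of a type and less RNA per cell cannot be told apart.

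In mammals, DNA methylation lies mostly on the cytosine of CpG dinucleotides. Dnmt1 copies the pattern to the new strand after replication, Dnmt3a and Dnmt3b place methyl groups on unmethylated DNA, and the Tet enzymes oxidise 5-methylcytosine as a first step towards its removal. Neurons are known for high 5-hydroxymethylcytosine, the product of the Tet enzymes, and for methylation outside CpG sites, which Dnmt3a lays down after birth. The Mbd proteins carry a methyl-CpG binding domain; Mbd2 and Mbd3 are alternative subunits of the NuRD (nucleosome remodelling and deacetylase) complex, and mammalian Mbd3 binds methylated CpG poorly.

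Transcription start regions were taken for the members from RefSeq (GRCm38.p6) as 250 bases before and 50 bases after the start, and 7 of 9 members matched, with 11 start regions. The regions of Tet2 and Mbd3 are shown because these genes had the smallest unadjusted p-values of the 9 in the comparison of MS with SR. Capitals mark each CpG (the letters CG, which read the same on both strands), and both regions are written 5′ to 3′ on the minus strand of GRCm38.p6, at chr3:133544341-133544640 for Tet2 and at chr10:80399482-80399781 for Mbd3.
Tet2: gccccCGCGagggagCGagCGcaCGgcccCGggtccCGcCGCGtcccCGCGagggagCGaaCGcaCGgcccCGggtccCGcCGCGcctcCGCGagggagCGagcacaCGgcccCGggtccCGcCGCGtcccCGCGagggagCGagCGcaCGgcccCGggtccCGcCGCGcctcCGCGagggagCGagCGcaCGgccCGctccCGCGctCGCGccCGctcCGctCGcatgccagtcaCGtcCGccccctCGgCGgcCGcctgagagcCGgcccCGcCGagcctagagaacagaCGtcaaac
Mbd3: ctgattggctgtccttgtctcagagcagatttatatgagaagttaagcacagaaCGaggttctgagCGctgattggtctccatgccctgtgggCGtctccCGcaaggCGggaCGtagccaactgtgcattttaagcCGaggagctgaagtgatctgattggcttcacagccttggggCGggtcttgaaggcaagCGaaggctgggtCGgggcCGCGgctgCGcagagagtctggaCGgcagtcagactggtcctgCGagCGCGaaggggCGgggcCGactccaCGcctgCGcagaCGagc
The Tet2 region held 57 CpG, a number reached by 0.152% of the 32851 RefSeq regions of this length, whose median was 7. The Mbd3 region held 22, as did that of Tet3, and 23.1% of all regions held at least as many. For Dnmt3a, the 3 annotated starts had 46, 47 and 18 CpG. The regions with 46 and 47 overlap and so share CpG, and the end of the former was not found in the GENCODE M21 transcripts of the gene. Dnmt1 also had 3 starts, with 2, 12 and 33 CpG. Gene counts do not separate transcripts from different starts, so the level of each start was not measured, and neither was methylation.

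Total counts were 17276810 to 24052716 in the 8 MS mice compared and 18368519 to 26450808 in the 12 SR mice. The remaining MS mouse, named A2 here, had a score of 27.1 on the first principal component against -11.7 to 11.3 in the other 20 mice, and was left out, since the study removed 1 library by principal component analysis. That library is not named, and A2 is assumed here to be the same; values with A2 are given where they change a sign. Its 5 striatal neuron markers summed to 1541 CPM (the counts of a gene scaled to the normalised library total), against 78.9 to 535 in the other MS mice, and its dentate granule cell markers summed to 115 CPM against 250.5 to 457. Of the latter, Calb1 in A2 (92.1 CPM) lay within the range of the other 20 mice (64.4 to 111.4 CPM). Prox1 (20.4), C1ql2 (1.85) and Dsp (0.692 CPM) lay below the lowest other mouse (70.3, 38.2 and 54.0 CPM). A letter stands for 3 mice with consecutive animal numbers, called a set here, with sets A, B and C in MS and D, E, F and G in SR, and a digit for the mouse within it. The labels name no nest, but nests were assigned to a condition as a whole, and p-values over mice treat mice that may share a nest as independent.

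The 9 genes spanned a wide range of levels. Per kilobase of exon, Mbd3 had the highest level, 50.9 ± 4.07 CPM per kb (SD over the 20 mice), which put it at percentile 96.0 of the genes tested. Mbd2 followed with 10.5 ± 0.544, Mbd1 with 9.06 ± 0.344 and Dnmt1 with 8.56 ± 0.564 CPM per kb. Dnmt3a, the main de novo methyltransferase of mature neurons, stood at 6.69 ± 0.727 CPM per kb. Among the erasers the order was Tet3 (4.43 ± 0.504 CPM per kb), Tet2 (2.76 ± 0.345) and Tet1 (0.678 ± 0.0815). Dnmt3b was lowest, at 0.229 ± 0.0673 CPM per kb and percentile 4.81, with 14 to 47 counts per library. Each gene was above the next in this order in 20 of 20 mice, with the exception of Mbd1, which was above Dnmt1 in 16 of 20. Exon lengths sum all annotated exons of a gene, used or not, which lowers the value of genes with long untranslated or rarely used exons.

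**Figure D1:**
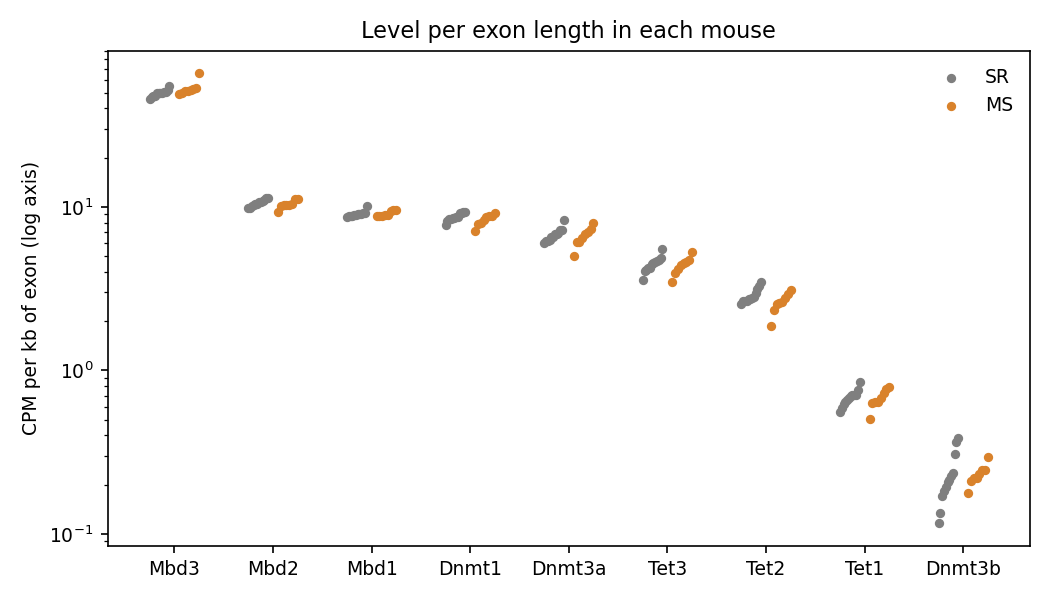
Level of the 9 genes per exon length, as CPM per kb on a log axis, with 1 point per mouse in rising order within each group (SR grey, 12 mice; MS orange, 8 mice). The genes are ordered by their mean over the 20 mice, from Mbd3 at 50.9 to Dnmt3b at 0.229 CPM per kb, and the points of both groups overlap for every gene.

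Of the 9 genes, 0 passed the test between MS and SR (edgeR quasi-likelihood test, Benjamini-Hochberg adjustment over the 18146 genes, threshold 0.05), and their adjusted p-values were 0.381 or higher. The background was low as well, since 2 of all genes tested (0.011%) were called. Of the 9, 3 had a higher and 6 a lower mean fold change in MS, with a median log2 fold change of -0.03 against 0.00084 for all genes, 49.7% of which were lower. At an unadjusted p under 0.05, 1 of the 9 genes was higher in MS (Mbd3) against 6.62% of all genes, and 0 were lower against 4.92%. DESeq2 called 0 of the 9 and 0.966% of the 13871 genes it gave an adjusted p; its lowest adjusted p among the 9 was 0.322, 1 gene had an unadjusted p under 0.05, and Dnmt3b received no adjusted p.

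**Figure D2:**
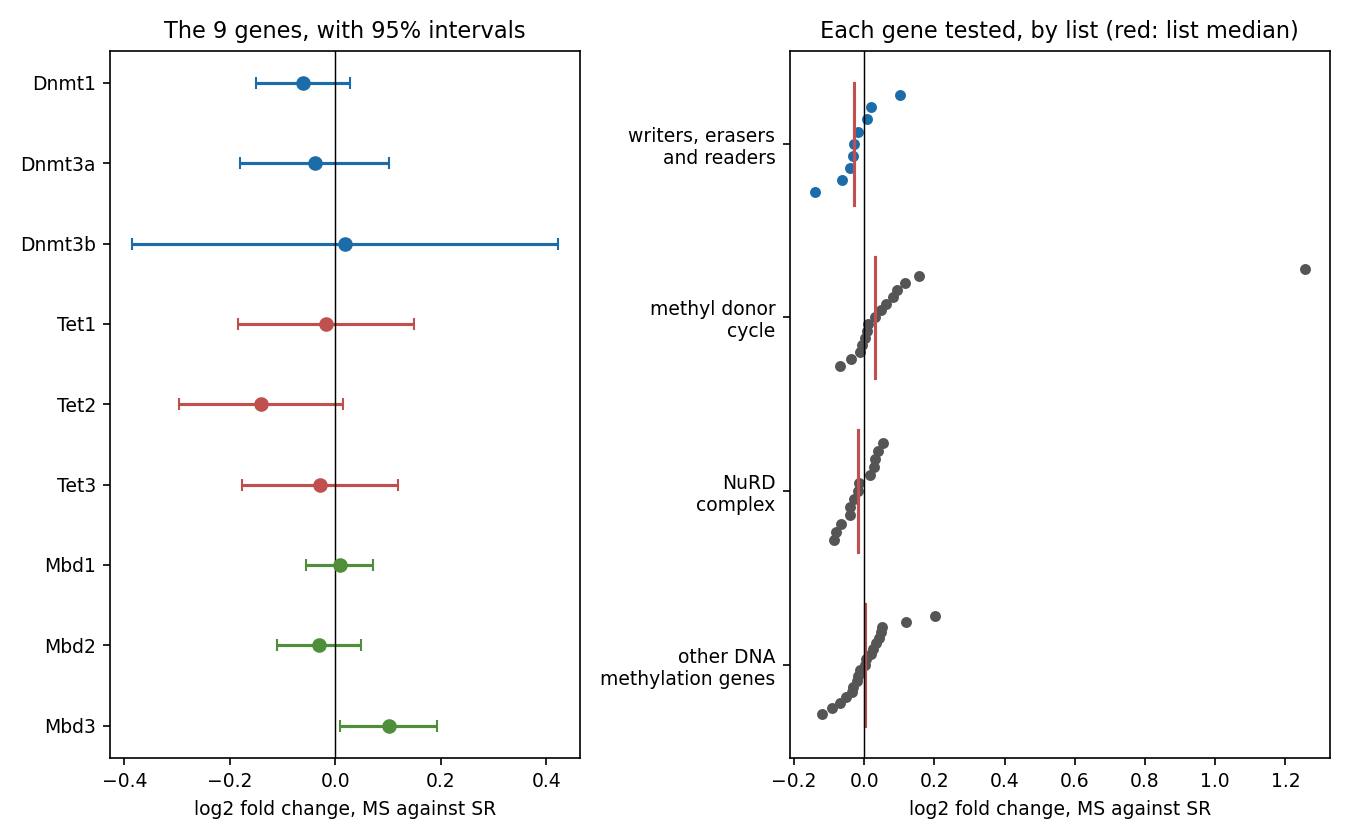
Log2 fold change of each gene, MS against SR, with its 95% interval from the edgeR fit (8 MS and 12 SR mice); the vertical line marks no difference. The interval of Mbd3 (0.01 to 0.19) lies above 0, those of the other 8 genes include 0, and Dnmt3b has the widest, from -0.39 to 0.42.

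Among the writers, Dnmt1, the maintenance methyltransferase (ENSMUSG00000004099, GRCm38 chromosome 9, 20907209 to 20959888), lay between 52.8 and 67.9 CPM in MS mice with a median of 62.5. In SR mice it lay between 57.4 and 69.1 CPM with a median of 63.5. The groups overlapped, apart from 1 MS mouse below every SR mouse and 2 SR mice above every MS mouse. The means were 61.5 ± 4.76 (SD, n = 8) and 64.2 ± 3.52 CPM (SD, n = 12), a log2 fold change of -0.06 (SE 0.0431, adjusted p = 0.608, edgeR), and the 95% interval of the change ran from -9.93% to 1.89%.

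Dnmt3a (ENSMUSG00000020661, chromosome 12, 3806007 to 3914443) was the most abundant writer by counts. It ranged from 83.4 to 132 CPM in MS mice (median 110.3) and from 99.8 to 138.7 CPM in SR mice (median 111.5). The MS range covered most of the SR range, with 1 MS mouse below it and 1 SR mouse above the highest MS mouse. The log2 fold change was -0.04 (SE 0.0681, adjusted p = 0.873, edgeR), and the interval, -11.8% to 7.28%, leaves room for a change of either sign. The mouse left out, A2, had 169 CPM, above the 138.7 CPM of the highest other mouse in a normalisation over all 21 libraries. With A2 in the fit, the log2 fold change was 0.05 (p = 0.606 before adjustment).

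Dnmt3b (ENSMUSG00000027478, chromosome 2, 153649450 to 153687730), the de novo methyltransferase best known from the early embryo, was near the lower limit of what was measured. MS mice had 0.911 to 1.5 CPM (median 1.16) and SR mice 0.594 to 1.97 CPM (median 1.07), so that the MS mice all fell within the SR range. The log2 fold change of 0.02 (SE 0.196, adjusted p = 0.985, edgeR) carried an interval from -23.5% to 34.0%, and a difference within it was not detectable. With A2 in the fit, the value was -0.03.

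**Figure D3:**
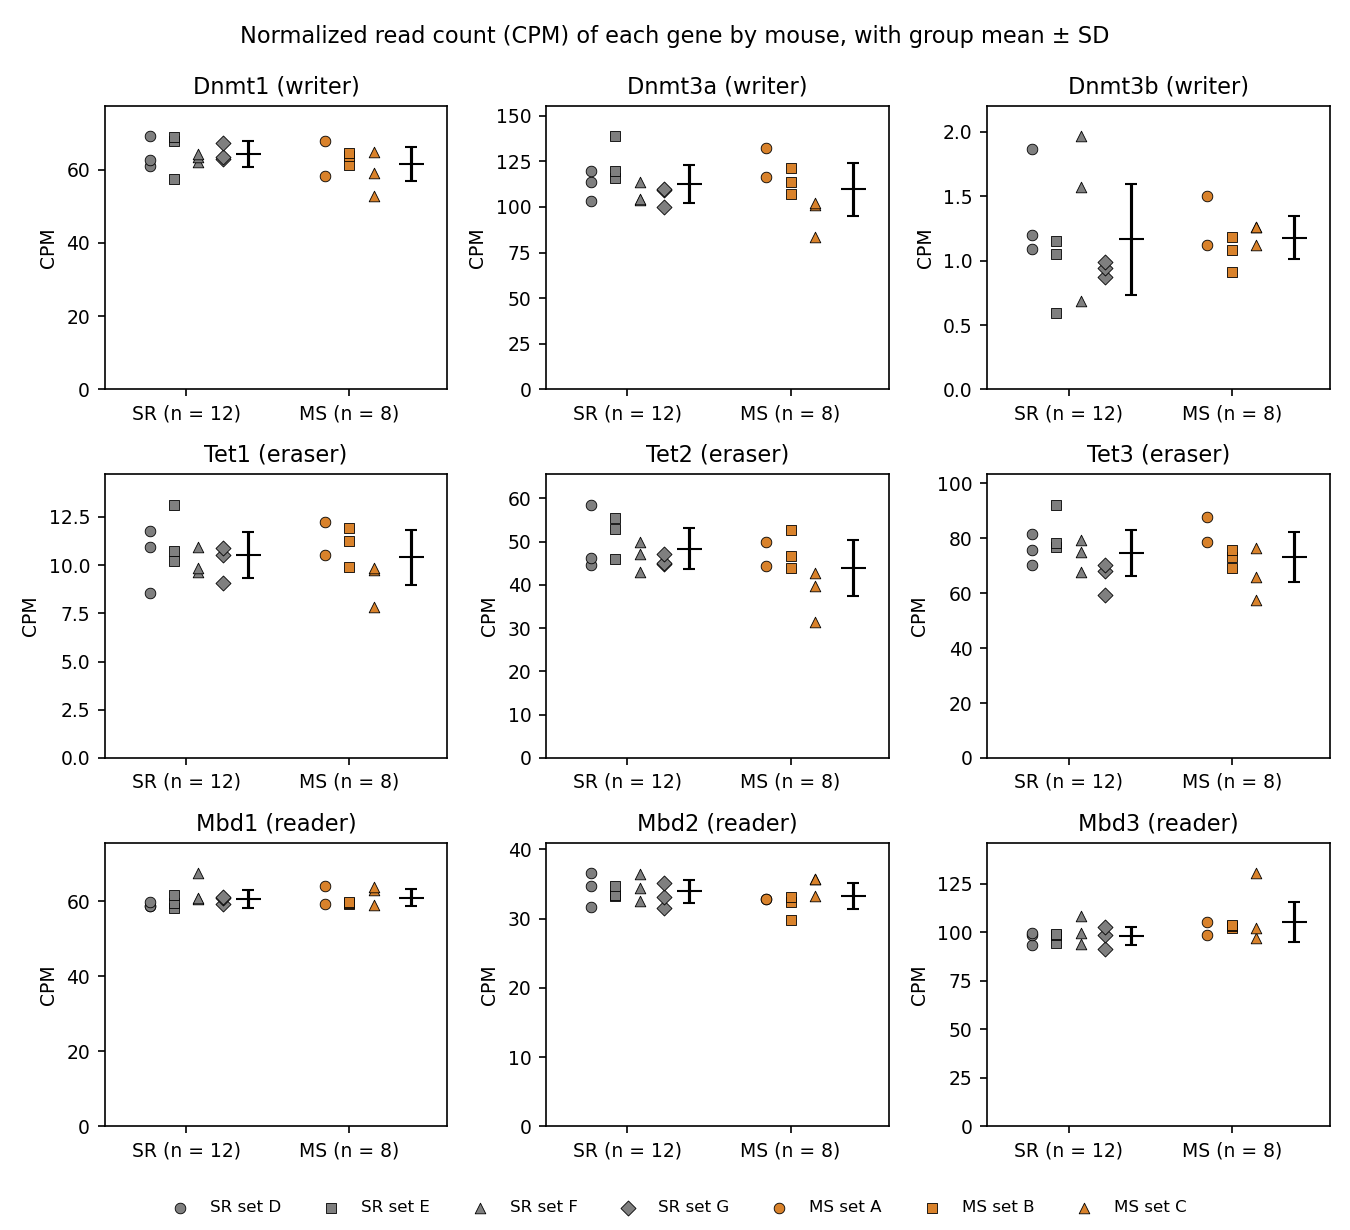
CPM of each gene in every mouse, with SR mice in grey and MS mice in orange, a black bar for the group mean and an error bar for the SD. Groups overlap in all panels; in the Mbd3 panel a single MS mouse, C1, stands at 130.4 CPM, and in the Tet2 panel 3 MS mice lie below the lowest SR mouse at 43.1 CPM.

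The 3 erasers all had a mean that was lower in MS by less than the spread between mice. Tet2 (ENSMUSG00000040943, chromosome 3, 133463679 to 133545139), which unlike its relatives lacks a CXXC DNA-binding domain of its own, ranged from 31.4 to 52.6 CPM in MS mice with a median of 44.1. SR mice ranged from 43.1 to 58.5 CPM with a median of 46.6. The 3 MS mice below every SR mouse were the 3 mice of set C, with 31.4, 42.8 and 39.6 CPM, while the 5 MS mice of sets A and B had 43.8 to 52.6 CPM. The means were 43.9 ± 6.48 (SD, n = 8) and 48.4 ± 4.81 CPM (SD, n = 12), a log2 fold change of -0.14 (SE 0.0749, unadjusted p = 0.0723, adjusted p = 0.485, edgeR). Without C1 the log2 fold change was -0.08 (p = 0.189), without set C -0.03 (p = 0.662), and with A2, which had 64.8 CPM and so more than any other mouse, it was -0.06 (p = 0.474). The difference was larger without set B (-0.22, unadjusted p = 0.0168, adjusted p = 0.408, edgeR) and without set A (-0.18, unadjusted p = 0.0417, adjusted p = 0.588). Leaving out single mice gave values from -0.18 (without B1) to -0.08 (without C1).

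Tet3 (ENSMUSG00000034832, chromosome 6, 83362373 to 83459084), the eraser with most counts here and known for demethylation in the zygote, had 57.6 to 87.8 CPM in MS mice (median 74.6) and 59.4 to 92.3 CPM in SR mice (median 75.4). Both medians and both ranges nearly coincided. The log2 fold change was -0.03 (SE 0.0716, adjusted p = 0.918, edgeR; interval -11.6% to 8.62%), and 0.03 with A2, whose 98.9 CPM exceeded the 92.2 CPM of the next mouse in the normalisation over all 21 libraries. Tet1 (ENSMUSG00000047146, chromosome 10, 62804570 to 62908996), a CXXC-domain dioxygenase prominent in embryonic stem cells, had 7.81 to 12.2 CPM in MS mice (median 10.2) and 8.57 to 13.1 CPM in SR mice (median 10.6). MS mice were again spread over the SR range, with 1 below it. Its log2 fold change was -0.02 (SE 0.081, adjusted p = 0.959, edgeR; interval -12% to 10.9%) and 0.01 with A2.

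Of the 3 readers, Mbd1 and Mbd2 varied less between mice than any other member. Mbd1 (ENSMUSG00000024561, chromosome 18, 74267605 to 74282732), which recruits histone methyltransferase activity to methylated promoters, had 58.9 to 64.0 CPM in MS mice (median 59.7) and 58.2 to 67.4 CPM in SR mice (median 60.2). Every MS mouse was inside the SR range. The log2 fold change was 0.01 (SE 0.0308, adjusted p = 0.948, edgeR), with the narrowest interval of the 9, -3.76% to 5.1%; the dispersion of Mbd1 corresponded to a biological coefficient of variation of 5.23%, against 9.59% on the trend for genes of its abundance, and that of Mbd2 to 6.19%. Mbd2 (ENSMUSG00000024513, chromosome 18, 70568189 to 70626131), the NuRD subunit that binds methylated CpG, had 29.9 to 35.8 CPM in MS mice (median 33.0) and 31.6 to 36.6 CPM in SR mice (median 33.9). Its groups overlapped apart from 1 MS mouse below and 2 SR mice above. The log2 fold change was -0.03 (SE 0.0387, adjusted p = 0.809, edgeR; interval -7.4% to 3.45%).

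Mbd3 (ENSMUSG00000035478, chromosome 10, 80392539 to 80399550) had the largest upward difference. MS mice ranged from 97.2 to 130.4 CPM with a median of 102.6, and SR mice from 91.2 to 108.5 CPM with a median of 98.5. Of the 8 MS mice, 7 were above the SR median, and 4 SR mice were below the lowest MS mouse, but only mouse C1 was above the highest SR mouse. The means of 105.4 ± 10.5 (SD, n = 8) and 98.3 ± 4.60 CPM (SD, n = 12) gave a log2 fold change of 0.10 (SE 0.0446, unadjusted p = 0.0329, adjusted p = 0.381, edgeR), a change of 7.25% with an interval from 0.621% to 14.3%. The other 7 MS mice averaged 101.8 ± 2.89 CPM, and without C1 the log2 fold change was 0.05 (unadjusted p = 0.120, adjusted p = 0.579). With A2 in the fit it was 0.11 (unadjusted p = 0.0184, adjusted p = 0.337).

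Mouse C1 was at the edge of several members in addition to Mbd3. It had the lowest value of the 20 mice for Dnmt1 (52.8 CPM), Dnmt3a (83.4 CPM), Tet2 (31.4 CPM) and Tet3 (57.6 CPM), but not for Tet1, where it had 9.84 CPM and 5 mice were lower. Exon lengths are 7377 to 16870 bases for these 5 genes, with 15457 for Tet1, and 1987 bases for Mbd3, the shortest of the 9. The share of all genes tested that were lowest in C1 is not given here, so these values do not set the members apart from other genes. The correlation of log2 CPM with log2 exon length across genes, computed in each library, was also lowest in C1, at 0.451 against 0.4635 to 0.4931 in the other 19 mice. It averaged 0.476 ± 0.0141 in MS and 0.480 ± 0.00619 in SR mice. Over all genes, the median log2 fold change was 0.04 for genes with 1 to 2 kb of exon and -0.03 for those above 8 kb. With this length trend as a term in the edgeR fit, Mbd3 had a log2 fold change of 0.08 (unadjusted p = 0.0469) and Tet2 of -0.11 (p = 0.0933). Whether the length trend is a cause of the values of C1, Mbd3 or Tet2 was not tested.

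Within each family the composition was much the same in both groups. Per exon length, Dnmt1 made up 55.2% ± 2.10 of the 3 methyltransferases in MS and 55.5% ± 2.03 in SR mice, and Dnmt3a 43.3% ± 2.19 and 43.0% ± 2.19. Of the Tet family, Tet3 held 57.2% ± 1.97 in MS and 55.7% ± 2.43 in SR mice, and Tet2 33.9% ± 1.78 and 35.8% ± 2.31. Mbd3 took 73.1% ± 1.82 of the 3 readers in MS and 71.6% ± 1.21 in SR mice. These differences are of the size of the SDs and were not tested.

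The members differed in how much their level varied between sets of consecutive animal numbers. For Dnmt3a, 63.3% of the variation within groups lay between sets, for Tet3 55.6% and for Tet2 45.1%, against a median of 30.4% over all genes tested. Dnmt3a averaged 124.1, 113.9 and 95.4 CPM in the MS sets A, B and C, and 112, 124.8, 107.2 and 106.2 CPM in the SR sets D, E, F and G. The range between sets of the same condition was therefore wider than the difference between conditions. For Mbd3, with 11.2% between sets, the MS sets averaged 102.1, 103 and 109.9 CPM and the SR sets 97.3, 97.5, 100.8 and 97.6 CPM. All 3 MS sets were above all 4 SR sets, as for 5.63% of all genes. For set C this rests on mouse C1, at 130.4 CPM. Without C1, set C would not be above SR set F for Mbd3. Dnmt1 was the only member with all MS sets (63.0, 63.2 and 58.9 CPM) below all SR sets (63.3 to 64.7 CPM), as for 4.51% of all genes. Set A holds 2 mice here, since A2 was left out. In the normalisation over all 21 libraries A2 had 71.4 CPM of Dnmt1, above the 69.1 CPM of the highest other mouse. With A2 in it, set A would not be below the SR sets for Dnmt1. With counts summed within sets, C1 included, Mbd3 had a log2 fold change of 0.10 (unadjusted p = 0.0248, adjusted p = 0.540, edgeR) and Tet2 of -0.13 (p = 0.146).

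Animal numbers fell in 2 ranges, with sets C and G in the higher one. Within the lower range (sets A, B, D, E and F), Mbd3 had a log2 fold change of 0.06 (unadjusted p = 0.122, edgeR) and Tet2 of -0.06 (p = 0.441). Within the higher range, which holds 1 set per group, the values were 0.18 (p = 0.145) and -0.26 (unadjusted p = 0.0321, adjusted p = 0.937). Dnmt3a was higher in MS in the lower range (0.04) and Mbd2 in the higher one (0.07), against the sign of their overall values.

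Across the 20 mice, deviations of log2 CPM from the group mean were compared between the members. Mice of a set may be litter mates and so are not independent, and genes of a library share its depth and normalisation, so the correlations are given as a description without a p-value. Of the 36 pairs, 18 had a positive and 18 a negative r. Dnmt3a varied with Tet3 (r = 0.87, rho = 0.77; r = 0.77 without the 2 farthest mice), with Tet2 (r = 0.86, rho = 0.82; 0.77) and with Tet1 (r = 0.72, rho = 0.77; 0.77). Mice that were high or low for Dnmt3a thus tended to be so for the 3 erasers. For Dnmt1 and Tet2 r was 0.78 (rho = 0.66; 0.68). The most negative pair was Tet1 with Mbd2 (r = -0.63, rho = -0.71; -0.61). Dnmt1 and Mbd3 had r = -0.60, but rho = -0.37 and r = -0.33 without the 2 farthest mice. For Mbd3 with Tet2, Dnmt3a and Tet3, r was -0.48, -0.36 and -0.20, and -0.04, 0.11 and 0.13 without the 2 farthest mice, with rho between -0.07 and 0.16. The length trend of the library moved with Dnmt1 (r = 0.74), Tet2 (0.57) and Mbd3 (-0.67). It moved less with Dnmt3a (0.46), Mbd2 (-0.39) and Tet1 (0.34), and little with Tet3 (0.11), Mbd1 (-0.08) and Dnmt3b (-0.02). Mouse C1 had the lowest length trend, the highest Mbd3 and the lowest Dnmt1 and Tet2. These values include C1, and r without C1 is not given here. The part of the length trend in the pairs was not tested.

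**Figure D4:**
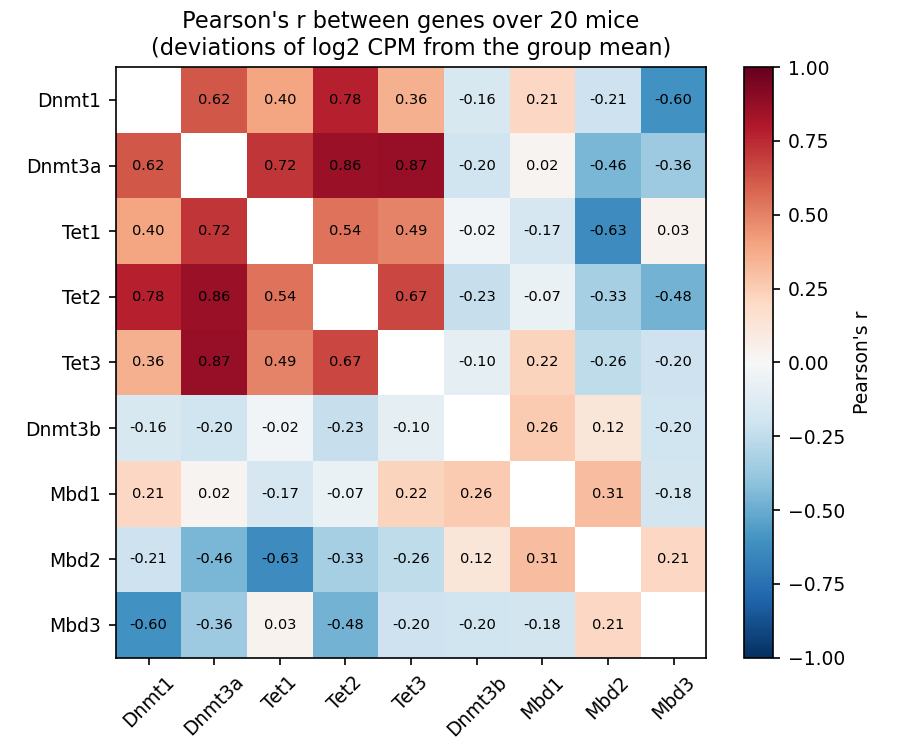
Pearson's r between the members over the 20 mice, from deviations of log2 CPM from the group mean, with red for positive and blue for negative values. Dnmt1, Dnmt3a and the Tet genes form a block of positive values up to 0.87, and Mbd2 is negative with each of them, down to -0.63. Without the 2 farthest mice, Mbd2 had -0.61 with Tet1, -0.35 with Dnmt3a and -0.24 with Tet2, but -0.08 with Dnmt1 and -0.0015 with Tet3. Within the block, Dnmt1 with Tet3 then had 0.18. The values of Mbd3 with Dnmt3a, Tet2 and Tet3 were 0.11, -0.04 and 0.13 without the 2 farthest mice.

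For each member, the genes whose deviations were most like it were sought among 12099 genes with a median of at least 5 CPM. Dnmt3a was closest to Uhrf1bp1 (r = 0.94) and Mdm4 (0.92), Tet3 to D030047H15Rik (0.95) and Plec (0.93), and Tet2 to Cntn3 (0.92) and Zfp704 (0.89). Dnmt1 was closest to Fzd3 and Sdk2 (both 0.88) and Tet1 to Ptprd and Pdrg1 (both 0.82). Among the readers, Mbd2 was closest to Naa10 (0.82) and Tradd (0.81), and Mbd1 to Mettl3 (0.76) and Peli1 (0.73, but rho = 0.48 and r = 0.36 without the 2 farthest mice). For Mbd3 the closest were S100a16 (0.88) and Cuedc2 (0.87), which fell to 0.55 and 0.48 without the 2 farthest mice. Dnmt3b, at its low counts, reached 0.73 (Sri) and 0.69 (Gm13456). The highest of 12099 values is large by selection, so that such values say little of any single pair.

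Other genes of the pathway were listed by function. Of 20 genes that assist, complete or read DNA methylation, 19 were tested (Dnmt3l, a cofactor of de novo methylation in germ cells, had 0 to 8 counts per library and was not), 10 were higher and 9 lower in MS, and 0 passed the test, with a median log2 fold change of 0.00 and a lowest adjusted p of 0.265. At an unadjusted p under 0.05, 2 were higher and 2 lower, against 6.62% and 4.92% of all genes. Cxxc5, a CXXC-domain protein related to the domain that Tet2 lacks, had 77.7 ± 5.10 CPM in MS and 71.6 ± 4.33 CPM in SR mice (log2 fold change 0.12, unadjusted p = 0.00841). Gadd45g, a stress-inducible gene linked to demethylation, had 14.1 ± 2.38 and 12.3 ± 1.24 CPM (0.20, p = 0.0239, adjusted p = 0.354). It was the only gene of the lists to be called under any alternative. Without set C its log2 fold change was 0.28 (adjusted p = 0.0498, edgeR), when 340 of the 18561 genes tested were called. Zbtb38, a zinc-finger reader of methylated DNA, had 56.0 ± 2.46 and 59.6 ± 3.00 CPM (-0.09, p = 0.0166). Mbd5, which has an Mbd domain but does not bind methylated CpG, had 67.8 ± 7.37 and 73.7 ± 4.70 CPM (-0.12, p = 0.0326). Uhrf1, which brings Dnmt1 to hemimethylated DNA, had 1.70 and 1.72 CPM (-0.02, adjusted p = 0.984), and the activity-induced Gadd45b 9.87 and 9.75 CPM (0.02, adjusted p = 0.961).

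Of 13 NuRD genes, the partners of Mbd2 and Mbd3, all were tested and 0 passed, with 5 higher and 8 lower in MS and a median log2 fold change of -0.02. The lowest p belonged to Mta1, a metastasis-associated scaffold subunit, with 78.5 ± 1.57 CPM in MS and 82.2 ± 2.69 CPM in SR mice (-0.07, unadjusted p = 0.0194, adjusted p = 0.333, edgeR). It was the only 1 of the 13 with an unadjusted p under 0.05, against 4.92% of all genes lower at that p. At any p, 49.7% of all genes were lower. Gatad2b, which bridges the Mbd and Chd4 subunits, had 111.6 ± 8.56 and 118.5 ± 7.74 CPM (-0.09, p = 0.0697). Of the subunits with a higher mean, the histone chaperone Rbbp4 (0.04, p = 0.274) and the deacetylase Hdac2 (0.03, p = 0.376) had the lowest p.

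Another list held 16 genes that make, recycle or divert S-adenosylmethionine, the methyl donor of the Dnmt enzymes. Of these, 15 were tested (the liver enzyme gene Mat1a had 0 to 12 counts and was not). Among the 15, 11 were higher and 4 lower, and 0 passed. Their median log2 fold change was 0.03 and their lowest adjusted p was 0.207 (edgeR). Unadjusted p-values were under 0.05 for 4 genes higher in MS and 0 lower, against 6.62% and 4.92% of all genes, and for 3 higher genes with DESeq2. Amd1, the decarboxylase that diverts S-adenosylmethionine to polyamines, had 136.3 ± 9.37 CPM in MS and 125.7 ± 4.73 CPM in SR mice (0.12, SE 0.036, unadjusted p = 0.00321). Mat2a, the S-adenosylmethionine synthetase of most tissues, had 186.9 ± 6.98 and 175.2 ± 9.42 CPM (0.09, SE 0.0346, unadjusted p = 0.0126, adjusted p = 0.292). The other two, named after their values were seen, were Mtrr, methionine synthase reductase (0.16, p = 0.0300), and Bhmt, betaine-homocysteine methyltransferase, which had 0.894 ± 0.445 and 0.357 ± 0.388 CPM (p = 0.0389). Genes with lower means included Shmt2, of the folate cycle (-0.07, p = 0.151). DESeq2 called 0 genes in each of these 3 lists.

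Markers of the cell types that the tissue could hold were compared as well, and 0 of them passed the test. The 6 choroid plexus markers summed to 52.2 to 4160 CPM in MS mice (median 3285) and 28.2 to 4483 CPM in SR mice (median 828.6), and the 5 striatal neuron markers to 78.9 to 535 CPM (median 108) and 80.2 to 334 CPM (median 93.9). These 2 lists varied most, and no member of either passed the test. The 6 choroid plexus markers all had a positive log2 fold change. So had the 5 striatal markers in edgeR, but with DESeq2 1 was higher and 4 were lower. For each of the 5 striatal markers only 1 MS mouse was above the highest SR mouse. With both tools, the 5 interneuron markers were also all higher in MS (median log2 fold change 0.09), and the 2 oligodendrocyte precursor markers were both lower. Dentate granule cell markers, which define hippocampal tissue, were present in each of the 20 mice compared, at 250.5 to 457 CPM in MS and 237 to 474 CPM in SR. The part of tissue make-up in the values of the 9 genes was not tested.

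Annotated genes that overlap the 9 members had at most 13 counts per library and did not enter the test. On the exons themselves, only the antisense Dnmt3aos overlapped Dnmt3a (133 bases) and Gm42567 overlapped Tet2 (43 bases), with at most 3 counts each; the strand setting of the counting is not given in the sources used here, so reads of such pairs may not be separated.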

How the data were processed

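Poly-A RNA of the hippocampus was sequenced by the authors with a directional kit, aligned to GRCm38 and counted per Ensembl gene (STAR 2.7.3a and featureCounts in the submitters' processing notes); the authors deposited raw counts, not normalised or filtered. Groups follow the rearing condition in the labels.

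The library of MS mouse A2 was left out by its score on the first principal component of DESeq2 variance-stabilised counts (500 most variable genes). The other 20 were compared in edgeR 4.0.16 (R 4.3.3; TMM factors, filterByExpr with a minimum count of 10, robust quasi-likelihood fit), with p-values adjusted by Benjamini-Hochberg over 18146 genes. SE is the size of the log2 fold change over the root of F. CPM is relative to the TMM-normalised total, and log2 CPM has a prior count of 2. Alternatives used DESeq2 1.42.0, limma 3.58.1 with the set as a block, other filters, summed sets, and leaving out each mouse and set. The test was tried on simulated data. Exon lengths and positions are those of GENCODE M21.

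The members and lists were chosen with earlier results of these data known. Named genes are the 9 members, for each other list the 2 of smallest p in each direction, a few well-known genes of the pathway such as Uhrf1 and Gadd45b, and for each member the 2 genes most like it; some of these are not reported here.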

Additional observations from a re-analysis of the deposited data

Results flagged for a closer look

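Mbd3 in MS mouse C1 (130.4 CPM) stood apart from the other 7 MS mice, of which the nearest had 105.5 CPM; this gap was 0.75 of the range of the group, above the critical value of 0.526 of Dixon's test for 8 samples. Each of the 9 genes was tested in the MS mice, and 1 was singled out in this way; chance alone does so in 5% of groups.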

How the results depend on the processing

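Under all 38 alternatives 0 of the 9 members were called, and 0 NuRD and 0 methyl donor genes. Of the other DNA methylation genes 0 to 1 were called when mice or sets were left out. The sign never changed for Dnmt1, Tet2 and Mbd3. Dnmt1 lay between -0.13 (the higher range of animal numbers) and -0.02 (the lower range), with -0.03 without C1 and without set C and -0.04 with A2. Tet2 lay between -0.26 and -0.03 and Mbd3 between 0.05 and 0.18, with an unadjusted p under 0.05 in 6 and 27 alternatives. Log2 fold changes changed sign with all 21 libraries for Dnmt3a (0.046), Dnmt3b (-0.026), Tet1 (0.0093) and Tet3 (0.027). Within the lower range of animal numbers they did so for Dnmt3a (0.041), Dnmt3b (-0.098), Tet1 (0.069) and Mbd1 (-0.0069), and within the higher range for Tet3 (0.016) and Mbd2 (0.072). They also did so with the length trend as a term for Tet1 (0.0019) and without the filter on low counts for Mbd1 (-0.00083). When mice or sets were left out in turn, values ran from -0.11 to 0.067 for Dnmt3a, -0.078 to 0.12 for Dnmt3b, -0.071 to 0.085 for Tet1, -0.0996 to 0.0456 for Tet3, -0.00702 to 0.0262 for Mbd1 and -0.0762 to 0.00396 for Mbd2; the highest values of Dnmt3a, Tet1 and Tet3 came without set C. The cause was not tested.

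The number of genes called in the whole table was 2, and ranged from 0 (without set A, for example) to 340 without set C; it was 134 with DESeq2, 230 in the lower range of animal numbers, 0 in the higher, and 109 without C2 and also without C3. Dnmt3b had the widest interval of the 9, with both the lowest counts and the highest biological coefficient of variation (24.0%).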
